A study of Homo sapiens with 8 samples.

Results

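Solute carriers are membrane proteins that move amino acids, ions, sugars, vitamins and metabolites across cell and organelle membranes. The genes described here are those named by the SLC convention of a family number, the letter A and a member number. They were followed in SJRH30 cells, an established alveolar rhabdomyosarcoma line, before hypoxia (0 h) and after 6, 12 and 24 h at 1% oxygen. Each time had 2 Affymetrix arrays, which the labels call biological replicates, so the series holds 8 arrays and no genetic change or second treatment sets the groups apart. The labels call the cells muscle fibroblasts. Normoxic cells of matching later times were not analysed here, which means that hours in culture and hours of hypoxia cannot be told apart, and all 3 comparisons with 0 h share the same 2 arrays. Of 22277 probe sets on the array, 332 carried a single symbol of this form, and they stood for 217 of the 11963 genes measured. The glucose transporters SLC2A1 and SLC2A3, the lactate transporters SLC16A1 and SLC16A3 and the cystine transporter SLC7A11 were left out by rule. The 217 genes were sorted by what they carry into amino acids (42 genes), ions (60), mitochondrial carriers (28), organic cations (13) and all others (74). The others include sugars, vitamins, nucleosides and monocarboxylates. The amino acid class also counts 5 transporters of GABA, taurine, betaine and creatine, among them the creatine transporter SLC6A8.

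Secondary active carriers use the gradients of sodium, protons or chloride, which pumps build up at the cost of ATP, to bring in nutrients. Uniporters move solutes down their own gradients. Carriers of the SLC25 family sit mostly in the inner mitochondrial membrane and link the cytosol to respiration by passing nucleotides, phosphate, carboxylates and amino acids. In low oxygen, cells commonly shift from respiration to glycolysis, and the hypoxia-inducible factors raise the genes of several glucose and lactate transporters. Those classical targets are the ones left out here, so the description covers the rest of the transporter repertoire.

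The labelled tissue was checked with marker genes, given as log2 ranges over the 8 arrays. The 8 myogenic or alveolar rhabdomyosarcoma markers included the myogenic factors MYOD1 (11.89 to 12.09) and MYOG (9.85 to 10.27), the muscle genes DES (9.11 to 9.54) and CHRNA1 (11.47 to 11.55) and the tumour genes FGFR4 (11.38 to 11.58) and MYCN (11.57 to 11.96). The muscle cadherin CDH15 lay between 8.98 and 9.45 and PAX3 between 7.44 and 7.85, both lowest at 24 h. Of 8 fibroblast markers, COL1A1 lay between 8.11 and 8.45 and the other 7 between 4.31 (FAP) and 6.94 (LUM). The leukocyte marker PTPRC lay between 3.39 and 3.91, the endothelial marker PECAM1 between 5.23 and 5.84 and the epithelial markers CDH1 and EPCAM between 4.05 and 4.43 and between 6.59 and 7.14. These values come from different probe sets, so they describe each marker over the arrays and do not rank one marker against another. The array medians lay between 6.69 and 6.73, and the 12 h arrays had the narrowest spread of gene values (interquartile ranges of 3.83 and 3.77, where the remaining 6 ranged from 3.91 to 3.97). The 27 probe sets for spiked poly-A controls were brighter on hypoxic arrays, by a mean log2 difference from 0 h of 0.41, 0.38 and 0.58 at the successive times. The 18 probe sets for hybridisation controls were brighter there too, by 0.25, 0.19 and 0.19. The part of these differences in the results was not tested.

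Few solute carrier genes were called at 6 h in the fit of all genes, and called rises and falls were about equally common later. A gene was called when its adjusted p was under 0.05 (limma, Benjamini-Hochberg over all 11963 genes, two-sided). At 6 h, 3 members were called higher (the pyrimidine nucleotide carrier SLC25A36, the neutral amino acid transporter SLC6A15 and the creatine transporter SLC6A8) and 0 lower, that is 1.38% of members against 3.54% of all genes (2.32% higher and 1.22% lower). An unadjusted p under 0.05 was reached by 36 members at that time. At 12 h, 17 were called higher and 16 lower, 15.2% of members against 18.4% of all genes. The corresponding shares of all genes were 7.13% higher and 11.3% lower. At 24 h, 16 were called higher and 11 lower, 12.4% against 17.7%, with 8.59% of all genes higher and 9.15% lower. An F-test over the 3 comparisons called 24 members (11.1%), against 16.2% of all genes. The share of members called was therefore below the background of the array in each of these comparisons. In every called member, both arrays of one time lay above both arrays of the other.

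The changes were small. The median log2 change of the 217 genes was -0.01, 0.05 and -0.007 at the successive times, beside -0.019, 0.002 and -0.015 over all genes. Changes ran from -0.55 to 0.83 at 6 h, from -0.83 to 0.97 at 12 h and from -1.12 to 1.02 at 24 h. A change of at least 2-fold passed the test for 0 members at 6 h, 0 at 12 h and 2 at 24 h, which were the vesicular monoamine transporter SLC18A1 (higher) and the ergothioneine transporter SLC22A4 (lower). The counts depended on single arrays. Without 0 h replicate 1 the calls numbered 2, 13 and 16 at 6, 12 and 24 h, and without 0 h replicate 2 they numbered 2, 9 and 13. At 12 h they fell to 19 without either 6 h array and to 14 without 12 h replicate 2. At 6 h they fell to 1 without 6 h replicate 1 and rose to 8 without either 24 h array. Leaving out both 12 h arrays, an alternative added after the data were seen, gave 4 calls at 6 h and 27 at 24 h.

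**Figure D1:**
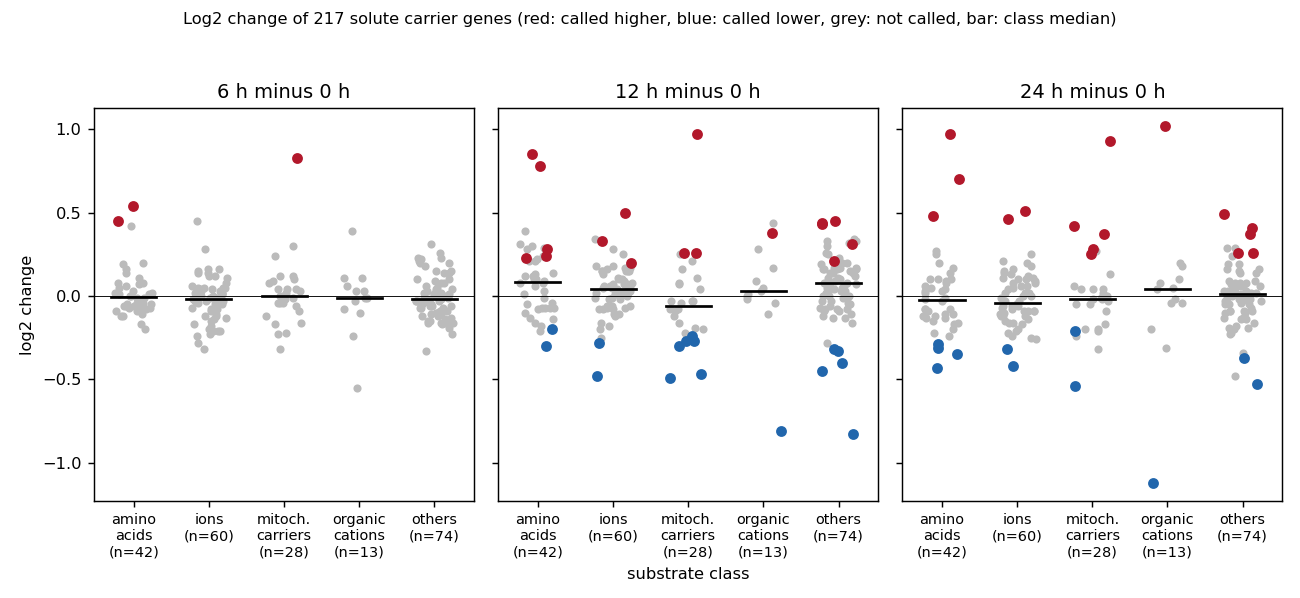
Log2 change from 0 h of each of the 217 solute carrier genes at 6, 12 and 24 h (vertical axis), sorted by substrate class (horizontal axis). Red points were called higher and blue points lower at an adjusted p under 0.05, grey points were not called, and each bar is the class median. Most points lie between -0.5 and 0.5, and the points beyond this range are mostly called.

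By class, mitochondrial carriers had the highest share of calls and ion transporters the lowest at 12 and 24 h. At 6 h the 3 calls were in 2 amino acid transporters and 1 mitochondrial carrier. At 12 h, 9 of 28 mitochondrial carriers (32.1%) were called, 7 of 42 amino acid transporters (16.7%), 2 of 13 organic cation transporters (15.4%), 10 of 74 others (13.5%) and 5 of 60 ion transporters (8.33%). At 24 h the shares were 25%, 16.7%, 15.4%, 9.46% and 6.67% in the same order. The classes also differed in brightness, which moves with the share of calls on these arrays. Of the mitochondrial carriers, 19 of 28 (67.9%) lay in the brighter 50% of all genes, against 15 of 42 amino acid transporters (35.7%), 18 of 60 ion transporters (30.0%), 19 of 74 others (25.7%) and 0 of 13 organic cation transporters. Within the brighter 50%, 31.6% of mitochondrial carriers were called at 12 h, beside 40.0% of amino acid transporters, 36.8% of others and 16.7% of ion transporters, with 28.1% over all brighter genes. At 24 h these shares were 31.6%, 40.0%, 31.6% and 16.7%, with 27.3% over all brighter genes. These shares are descriptions over 15 to 19 genes each.

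**Figure D2:**
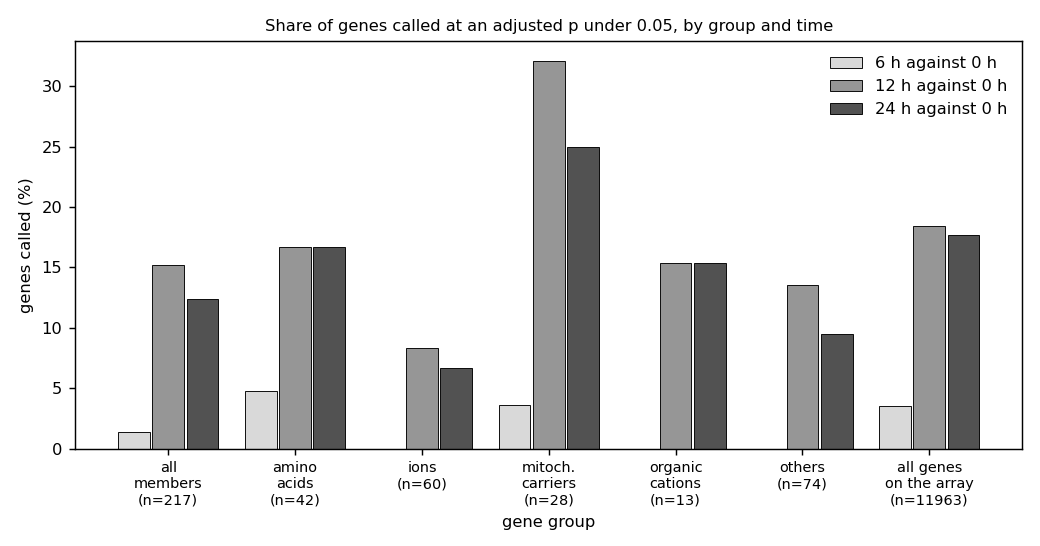
Share of genes called at an adjusted p under 0.05 (vertical axis, percent) among all 217 solute carrier genes, each substrate class and all 11963 genes, at 6, 12 and 24 h against 0 h (light, middle and dark bars). The bars of all members reach 1.38%, 15.2% and 12.4%, each lower than the bar of all genes (3.54%, 18.4% and 17.7%).

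The gene with the smallest adjusted p at every time was SLC25A36, which carries pyrimidine nucleotides into mitochondria. Its log2 values were 10.19 and 10.21 at 0 h, 11.03 and 11.03 at 6 h, 11.16 and 11.18 at 12 h, and 11.17 and 11.10 at 24 h. All hypoxic arrays thus lay well above both 0 h arrays, and most of the rise was present at 6 h. The change was 0.83 ± 0.05 (SE, n = 2 per time) at 6 h (limma adjusted p = 0.000193), 0.97 ± 0.05 at 12 h (adjusted p = 4.69e-05) and 0.93 ± 0.05 at 24 h (adjusted p = 4.56e-05), or 1.78-, 1.96- and 1.91-fold. It was called at each of these times whichever single array was left out. SLC6A8, which takes up creatine for the phosphocreatine store of muscle and brain, rose more slowly. Its values were 7.15 and 7.22 at 0 h, 7.59 and 7.68 at 6 h, 8.03 and 8.03 at 12 h, and 8.10 and 8.22 at 24 h. The groups of 0, 6 and 12 h did not overlap, and the 24 h arrays were the highest. The change was 0.45 ± 0.07 at 6 h (limma adjusted p = 0.0114), 0.85 ± 0.07 at 12 h (adjusted p = 0.000282) and 0.97 ± 0.07 at 24 h (adjusted p = 9.92e-05). Its call at 6 h was lost without any one of the 0 h or 6 h arrays (adjusted p up to 0.124), while the calls at 12 and 24 h were kept in all of these fits.

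SLC38A10, a less studied member of the family of sodium-coupled neutral amino acid transporters, had values of 7.57 and 7.52 at 0 h, 7.87 and 8.06 at 6 h, 8.34 and 8.30 at 12 h, and 8.11 and 8.37 at 24 h. Both arrays of each hypoxic time were above both 0 h arrays, and the 24 h replicates lay farther apart than those of any other time. The change was 0.42 at 6 h (limma adjusted p = 0.062, not called), 0.78 ± 0.10 at 12 h (adjusted p = 0.00243) and 0.70 ± 0.10 at 24 h (adjusted p = 0.00311). The largest fall belonged to SLC22A4, which takes up the antioxidant ergothioneine. Its values were 6.69 and 6.79 at 0 h, 6.23 and 6.15 at 6 h, 5.93 and 5.94 at 12 h, and 5.94 and 5.30 at 24 h. All hypoxic arrays were below 0 h, but the 24 h replicates differed from each other by more than those of any other time. The change was -0.55 ± 0.17 at 6 h (limma adjusted p = 0.138, not called), -0.81 ± 0.17 at 12 h (adjusted p = 0.0181) and -1.12 ± 0.17 at 24 h (adjusted p = 0.00493), or 2.17-fold lower. The 12 h call was lost without either 0 h array (adjusted p up to 0.106). The 24 h call was kept whichever array was left out, and over all alternatives the change lay between -1.44 and -0.80.

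**Figure D3:**
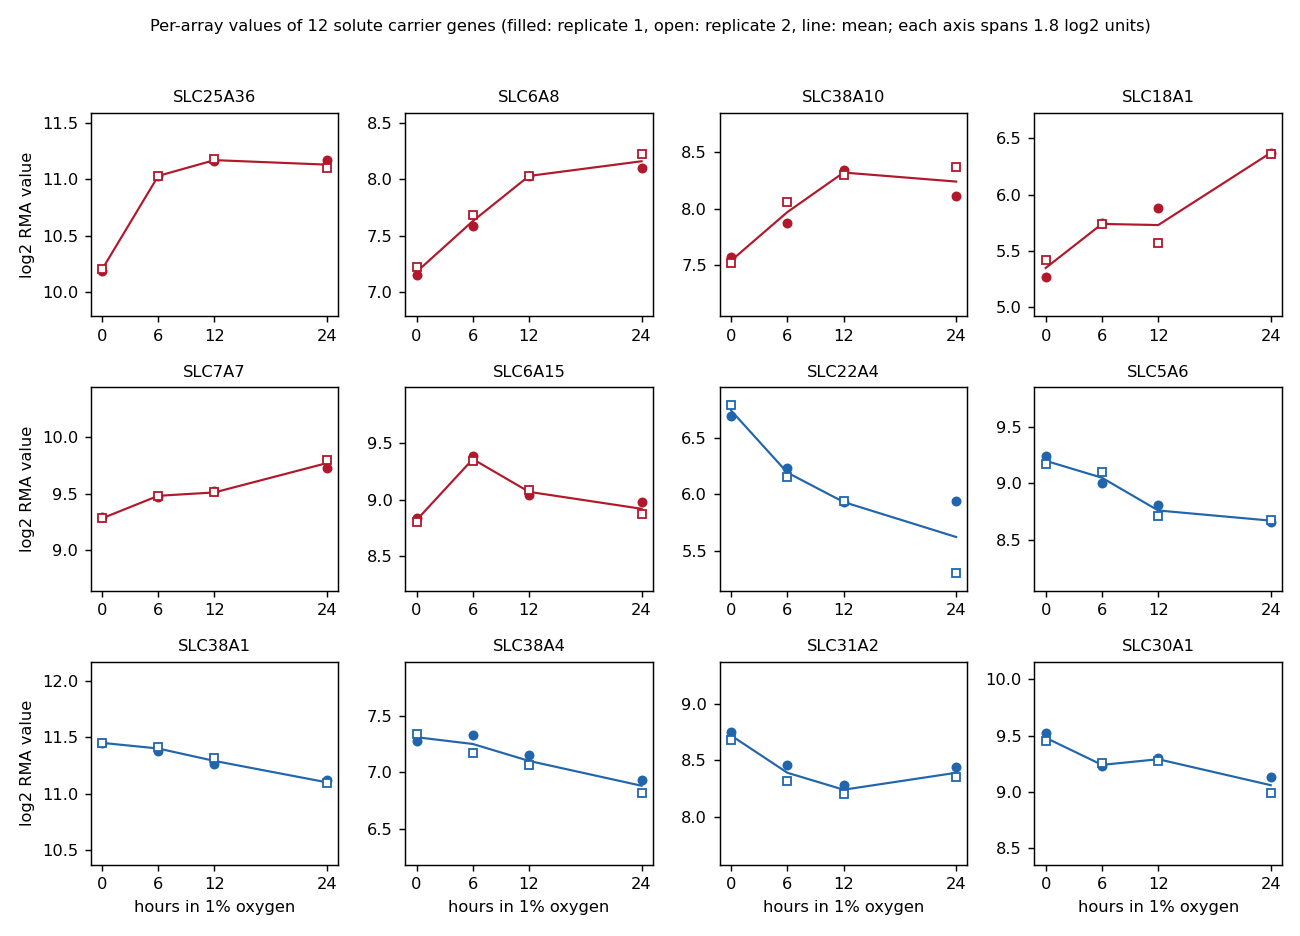
Log2 RMA value of 12 solute carrier genes on each of the 8 arrays (vertical axis, 1.8 log2 units in every panel) against hours at 1% oxygen (horizontal axis). Filled points are replicate 1, open points replicate 2 and the line joins the means; red genes were called higher and blue genes lower at one or more times. SLC25A36 reaches 11.03 at 6 h and stays near it, SLC6A15 peaks at 6 h, and SLC22A4 has replicates of 5.94 and 5.30 at 24 h.

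The promoters of these 4 genes are shown because their changes were among the largest in each direction and because hypoxia-inducible factors bind the short core letters ACGTG or GCGTG. Each stretch of 300 bases runs 5′ to 3′ on the strand of the gene, from 250 bases before to 50 bases after the first start listed in RefSeq (GRCh38.p14). Capitals mark ACGTG or GCGTG and their reverse complements, CACGT or CACGC. They are SLC25A36 at chr3:140941586-140941885 (plus strand), SLC6A8 at chrX:153687676-153687975 (plus strand), SLC38A10 at chr17:81295258-81295557 (minus strand) and SLC22A4 at chr5:132294144-132294443 (plus strand).
SLC25A36: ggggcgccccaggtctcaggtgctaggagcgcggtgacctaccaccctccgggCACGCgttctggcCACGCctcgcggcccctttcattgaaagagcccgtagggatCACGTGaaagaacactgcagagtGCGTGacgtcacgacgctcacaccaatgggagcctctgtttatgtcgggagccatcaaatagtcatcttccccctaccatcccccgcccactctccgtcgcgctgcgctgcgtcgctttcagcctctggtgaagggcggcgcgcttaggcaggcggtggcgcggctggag
SLC6A8: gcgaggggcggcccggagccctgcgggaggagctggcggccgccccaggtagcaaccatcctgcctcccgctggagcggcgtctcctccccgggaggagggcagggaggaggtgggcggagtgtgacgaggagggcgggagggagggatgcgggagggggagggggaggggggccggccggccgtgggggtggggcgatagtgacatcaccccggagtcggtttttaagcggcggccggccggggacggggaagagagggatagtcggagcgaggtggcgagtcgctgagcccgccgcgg
SLC38A10: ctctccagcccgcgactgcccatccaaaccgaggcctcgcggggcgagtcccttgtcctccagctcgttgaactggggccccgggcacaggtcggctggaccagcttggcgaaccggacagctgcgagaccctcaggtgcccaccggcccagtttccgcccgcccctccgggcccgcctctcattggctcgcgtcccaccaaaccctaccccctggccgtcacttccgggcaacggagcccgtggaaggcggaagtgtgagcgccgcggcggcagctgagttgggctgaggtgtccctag
SLC22A4: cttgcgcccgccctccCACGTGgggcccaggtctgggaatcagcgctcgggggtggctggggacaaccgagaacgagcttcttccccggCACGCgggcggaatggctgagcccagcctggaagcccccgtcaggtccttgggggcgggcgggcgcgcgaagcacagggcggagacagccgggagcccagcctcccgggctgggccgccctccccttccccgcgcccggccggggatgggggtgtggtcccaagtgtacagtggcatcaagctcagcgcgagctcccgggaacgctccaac
The window of SLC25A36 held 5 matches counted on both strands, where CACGTG counts on each strand, and that of SLC22A4 held 3. Those of SLC6A8 and SLC38A10 held 0. Over all members, 179 of 217 had a promoter that was used. ACGTG or GCGTG on either strand was in 52.9% of the 17 promoters of members called higher at any time, 72.2% of the 18 of members called lower and 59.7% of the 144 of members not called. The share was 58.7% of 9563 promoters of genes on the array and 48.4% of all 35116 promoters in the table. ACGTG alone was in 17.6%, 16.7% and 25.7% of the 3 sets of members, and CACGTG, which contains ACGTG, in 11.8%, 5.56% and 10.4%. A match is a description of letters in this window and not a binding site.

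Amino acid transporters included both rises and falls. Of 42 genes, 2 were called higher at 6 h and 0 lower, 5 higher and 2 lower at 12 h, and 3 higher and 4 lower at 24 h, beside 3.54%, 18.4% and 17.7% of all genes called in either direction. The class median was -0.008, 0.087 and -0.029 at the 3 times. SLC6A15, which takes up branched-chain amino acids and proline, had values of 8.84 and 8.80 at 0 h, 9.39 and 9.34 at 6 h, 9.04 and 9.09 at 12 h, and 8.98 and 8.87 at 24 h. It was highest at 6 h and had almost returned to the 0 h level by 24 h, with no overlap between the 6 h arrays and any others. The change was 0.54 ± 0.06 at 6 h (limma adjusted p = 0.00384), 0.24 ± 0.06 at 12 h (adjusted p = 0.0302) and 0.10 ± 0.06 at 24 h (adjusted p = 0.302, not called). The 6 h call was lost without 6 h replicate 1 (adjusted p = 0.0542), and the 12 h call without any one of the 0 h, 6 h or 12 h arrays (adjusted p up to 0.161). SLC7A7, the light chain of an exchanger that releases arginine and lysine, had values of 9.29 and 9.28 at 0 h, 9.47 and 9.48 at 6 h, 9.52 and 9.51 at 12 h, and 9.73 and 9.80 at 24 h. The 24 h arrays were above all others. Its change was 0.23 ± 0.05 at 12 h (limma adjusted p = 0.0232) and 0.48 ± 0.05 at 24 h (adjusted p = 0.00112), or 1.40-fold at 24 h. The 12 h call was lost without either 0 h or either 12 h array (adjusted p up to 0.133), and the 24 h call was kept in each case. The proline transporter SLC6A20 was called at 12 h alone (0.28, adjusted p = 0.0409), and its call was lost without either array of 0, 12 or 24 h (adjusted p up to 0.224).

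The members that fell carry glutamine and other small neutral amino acids. SLC38A1, a sodium-coupled glutamine transporter, had values of 11.45 and 11.45 at 0 h, 11.38 and 11.41 at 6 h, 11.26 and 11.32 at 12 h, and 11.12 and 11.09 at 24 h. The arrays of successive times did not overlap and each time was lower than the one before. The change was -0.06, -0.16 (limma adjusted p = 0.0765) and -0.35 ± 0.05 (adjusted p = 0.00488) at 6, 12 and 24 h. Its close relative SLC38A2, which is induced by amino acid shortage in many cells, had values of 12.37 and 12.33 at 0 h, 12.33 and 12.30 at 6 h, 12.13 and 12.16 at 12 h, and 12.09 and 12.00 at 24 h. The 6 h arrays touched the range of 0 h, and the later arrays lay below both. The change was -0.20 at 12 h (limma adjusted p = 0.045) and -0.31 at 24 h (adjusted p = 0.0102). SLC38A4, which carries neutral and cationic amino acids, had values of 7.28 and 7.34 at 0 h, 7.33 and 7.17 at 6 h, 7.15 and 7.06 at 12 h, and 6.93 and 6.82 at 24 h. Only from 12 h were its arrays below both 0 h arrays, and the change at 24 h was -0.43 (limma adjusted p = 0.00763). The glutamine exchanger SLC1A5 had values of 8.42 and 8.42 at 0 h, 8.27 and 8.33 at 6 h, 8.11 and 8.14 at 12 h, and 8.02 and 8.24 at 24 h. All hypoxic arrays were below 0 h, with changes of -0.30 at 12 h (limma adjusted p = 0.0336) and -0.29 at 24 h (adjusted p = 0.0378). The 24 h call of SLC38A1 was kept without any one array. That of SLC38A2 was lost without either 0 h array (adjusted p up to 0.081), that of SLC38A4 without 0 h replicate 2 (adjusted p = 0.0632), and that of SLC1A5 without either 0 h array, either 6 h array or 24 h replicate 1 (adjusted p up to 0.161). The 12 h calls of SLC38A2 and SLC1A5 were lost without any one of the 0 h, 6 h or 12 h arrays (adjusted p up to 0.211 and 0.145).

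Of the 8 SLC38 genes measured, 1 was called higher (SLC38A10) and 3 lower at 24 h, with a family median of -0.22, while 8.59% of all genes were called higher and 9.15% lower. A list of 9 plasma membrane and mitochondrial transporters of glutamine and glutamate had 0 members called at 6 h (1 with an unadjusted p under 0.05), 2 lower at 12 h and 4 lower at 24 h (SLC1A5, SLC38A1, SLC38A2 and the mitochondrial aspartate-glutamate carrier SLC25A12), with 0 higher at any time. Of all genes, 11.3% were called lower at 12 h and 9.15% at 24 h. Its median was -0.161 at 12 h and -0.214 at 24 h, beside 0.002 and -0.015 over all genes. The list was chosen with earlier results known and does not hold every such transporter. It left out measured SLC1 and SLC38 genes, among them SLC1A6, SLC1A7, SLC38A3 and SLC38A7. Also left out were SLC38A10, called higher at 12 and 24 h, and SLC38A4, called lower at 24 h. The count of 0 higher thus holds for the 9 listed genes alone. The 5 glutamate and aspartate transporters of the SLC1 family had 0 called at 24 h, with changes from -0.11 to 0.14. SLC25A12 changed by -0.21 at 24 h (limma adjusted p = 0.0446), and its call was lost without any one of the 8 arrays (adjusted p between 0.0544 and 0.229). The glutamate transporters SLC1A1, SLC1A2 and SLC1A3, which clear glutamate from the extracellular space, were not called, with changes of 0.29, 0.39 and 0.22 at 12 h (adjusted p = 0.244, 0.289 and 0.135) and 0.10, 0.14 and 0.10 at 24 h. Of 7 transporters known to be raised by the amino acid response, SLC38A2 and SLC1A5 were lower at 12 and 24 h and the other 5 were not called. Among those 5, the leucine transporter SLC7A5 changed by 0.20 at 6 h and 0.21 at 12 h (adjusted p = 0.187 and 0.088), its heavy chain SLC3A2 by -0.13 at 24 h (adjusted p = 0.187) and the arginine transporter SLC7A1 by -0.18 at 12 h (adjusted p = 0.0589).

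Of 28 mitochondrial carriers, 1 was called higher at 6 h (SLC25A36), 3 higher and 6 lower at 12 h, and 5 higher and 2 lower at 24 h. Of all genes, 7.13% were higher and 11.3% lower at 12 h, and 8.59% and 9.15% at 24 h. At 12 h, 8 of the 9 calls were lost without a single array, and that of SLC25A36 was kept. The class median was 0.003, -0.057 and -0.016. Besides SLC25A36, the adenine nucleotide translocase SLC25A4, which exchanges ADP for ATP and is abundant in muscle, was called higher at 12 and 24 h. Its values were 7.88 and 7.75 at 0 h, 7.81 and 7.90 at 6 h, 8.04 and 8.12 at 12 h, and 8.17 and 8.22 at 24 h. The 6 h arrays overlapped those of 0 h, and the later arrays were above them. The change was 0.26 at 12 h (limma adjusted p = 0.0353) and 0.37 at 24 h (adjusted p = 0.01). Over all alternatives it was as low as 0.14 and 0.21 at these times, and 6 and 7 of the 8 that used every array kept the call. Its calls were lost without any one of the 0 h, 6 h or 12 h arrays at 12 h (adjusted p up to 0.215) and without 0 h replicate 2 at 24 h (adjusted p = 0.0819). The other 4 genes of a short list of mitochondrial ATP and phosphate carriers were not called. The list does not hold every such carrier on the array. The phosphate carrier SLC25A3 changed by -0.02 and the second translocase SLC25A5 by 0.04 at 24 h, and the ATP-magnesium carriers SLC25A24 and SLC25A23 by -0.17 and 0.06 (adjusted p = 0.863, 0.658, 0.208 and 0.596).

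The citrate carrier SLC25A1, which exports citrate for lipid synthesis, had values of 8.21 and 8.09 at 0 h, 8.35 and 8.16 at 6 h, 8.24 and 8.28 at 12 h, and 8.46 and 8.68 at 24 h. The arrays of 0 and 6 h overlapped, and both 24 h arrays were above all others. Its change at 24 h was 0.42 (limma adjusted p = 0.0206), and the call was lost without either 0 h array or 24 h replicate 2 (adjusted p up to 0.136). The iron importer SLC25A37 (mitoferrin) rose by 0.25 and the uncoupling-protein relative SLC25A14 by 0.28 at 24 h (adjusted p = 0.0382 and 0.0227). Both calls were lost without either 0 h array, among others. Over all alternatives the change of SLC25A37 was as low as 0.11, and 7 of the 8 that used every array kept its call (limma adjusted p up to 0.299). The second mitoferrin, SLC25A28, changed by -0.27 at 12 h (adjusted p = 0.0206, up to 0.142 without either 0 h or either 12 h array) and by -0.20 at 24 h (adjusted p = 0.0589, not called). The carnitine-acylcarnitine carrier SLC25A20, which brings fatty acids in for oxidation, had values of 6.81 and 6.95 at 0 h, 6.57 and 6.56 at 6 h, 6.53 and 6.26 at 12 h, and 6.26 and 6.43 at 24 h. All hypoxic arrays were below both 0 h arrays, and those of 12 and 24 h overlapped. The change was -0.32 at 6 h (limma adjusted p = 0.144, not called), -0.49 at 12 h (adjusted p = 0.0166) and -0.54 at 24 h (adjusted p = 0.0111). Its 12 h call was lost without either 0 h array or 12 h replicate 2 (adjusted p up to 0.112), and its 24 h call without 0 h replicate 2 or 24 h replicate 1 (adjusted p up to 0.0857). The other 12 h falls were those of the oxoglutarate carrier SLC25A11 (-0.27), the peroxisomal carrier SLC25A17 (-0.24), the oxodicarboxylate carrier SLC25A21 (-0.47) and the folate and FAD carrier SLC25A32 (-0.30). Their adjusted p-values lay between 0.0288 and 0.0466, and each was lost without 0 h replicate 2 or 12 h replicate 2 among others (up to 0.22, 0.169, 0.233 and 0.142). SLC25A16 was called higher at 12 h (0.26, adjusted p = 0.0175) by a probe set whose probes also match other transcripts. Its other 2 probe sets changed by -0.13 and -0.11, neither called, and the call was lost without either 0 h or either 12 h array (adjusted p up to 0.107).

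Ion transporters were the class with the smallest share of calls at 12 and 24 h. At 6 h, 0 of 60 were called (7 with an unadjusted p under 0.05). At 12 h, 3 were called higher and 2 lower (8.33%), and at 24 h, 2 higher and 2 lower (6.67%). These shares were below those of all genes (3.54%, 18.4% and 17.7% at 6, 12 and 24 h). The potassium-chloride cotransporter SLC12A7, which takes part in cell volume control, had values of 9.47 and 9.42 at 0 h, 9.75 and 9.70 at 6 h, 9.95 and 9.95 at 12 h, and 9.83 and 9.98 at 24 h. All hypoxic arrays were above 0 h, and those of 12 and 24 h overlapped. The change was 0.28 at 6 h (limma adjusted p = 0.069, not called), 0.50 at 12 h (adjusted p = 0.00316) and 0.46 at 24 h (adjusted p = 0.00382), with both calls kept whichever array was left out. Its relative SLC12A8 was called at 12 h (0.33, adjusted p = 0.0301), and the call was lost without 0 h replicate 2 or any one of the 6 h or 12 h arrays (adjusted p up to 0.181). SLC24A1, a sodium-calcium-potassium exchanger best known from rod photoreceptors, had values of 6.84 and 6.96 at 0 h, 7.39 and 7.31 at 6 h, 7.32 and 7.04 at 12 h, and 7.56 and 7.27 at 24 h. Replicates of 12 and 24 h were far apart, and only the 24 h change of 0.51 was called (limma adjusted p = 0.0228, up to 0.135 without either 0 h array or 24 h replicate 1). Its 3 other probe sets changed by -0.15, 0.12 and 0.01 at 24 h, none of them called.

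Among metal transporters, a copper and a zinc carrier fell. The copper transporter SLC31A2, which sits mainly in endosomes and lysosomes, had values of 8.75 and 8.68 at 0 h, 8.46 and 8.32 at 6 h, 8.28 and 8.20 at 12 h, and 8.44 and 8.35 at 24 h. It was lowest at 12 h, and all hypoxic arrays were below 0 h. The change was -0.32 at 6 h (limma adjusted p = 0.0551, not called), -0.48 at 12 h (adjusted p = 0.0049) and -0.32 at 24 h (adjusted p = 0.0204). The 12 h call was kept whichever array was left out, and the 24 h call was lost without either 0 h array or 24 h replicate 2 (adjusted p up to 0.131). The plasma membrane copper importer SLC31A1 changed by -0.11 at 24 h (adjusted p = 0.225). SLC30A1, the zinc exporter of the plasma membrane, had values of 9.52 and 9.45 at 0 h, 9.23 and 9.26 at 6 h, 9.30 and 9.27 at 12 h, and 9.13 and 8.99 at 24 h. The hypoxic arrays were all below 0 h and lowest at 24 h, with a change of -0.42 (limma adjusted p = 0.00514) that was called whichever array was left out. The other 6 zinc efflux genes and all 8 zinc influx genes (SLC39) were not called at 24 h, and the SLC39 changes ran from -0.25 (SLC39A9) to 0.25 (SLC39A4). The iron importer SLC11A2 was called at 12 h (0.20, adjusted p = 0.0395). Over all alternatives its change was as low as 0.08, and 6 of the 8 that used every array kept the call (limma adjusted p up to 0.319). The anion exchanger SLC26A4 (pendrin) fell by 0.28 at 12 h (limma adjusted p = 0.039), in a single probe set whose probes also match other transcripts. The first call was lost without any one of the 0 h, 6 h or 12 h arrays (adjusted p up to 0.178), and the second without any array other than 12 h replicate 1 (adjusted p up to 0.179). All 8 bicarbonate transporters (SLC4) and all 4 sodium-proton exchangers (SLC9) among the members were uncalled at each hypoxic time. Of these, a list of 6 pH regulators of the plasma membrane had 0 members called at 6, 12 or 24 h. An unadjusted p under 0.05 was reached by 0, 1 and 1 of them. Their changes ran from -0.15 (SLC4A2 at 24 h) to 0.18 (SLC4A4 at 12 h, SE 0.16). The list left out other measured genes of both families, among them SLC9A2 and SLC9A3. Over the whole families, 2 of 8 SLC4 and 2 of 4 SLC9 members reached an unadjusted p under 0.05 at 24 h. The lowest changes there were -0.20 and -0.26. SLC9D1, whose name falls outside the convention, was called lower at 24 h (-0.33, limma adjusted p = 0.0437).

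Organic cation transporters held the largest rise and the largest fall at 24 h within 13 genes, all of them in the dimmer 50% of genes. SLC18A1, which loads monoamines into secretory vesicles, had values of 5.27 and 5.42 at 0 h, 5.75 and 5.74 at 6 h, 5.88 and 5.57 at 12 h, and 6.37 and 6.36 at 24 h. The hypoxic arrays were above both 0 h arrays, those of 6 and 12 h overlapped, and those of 24 h were clearly the highest. The change was 0.39 at 6 h (limma adjusted p = 0.0867, not called), 0.38 at 12 h (adjusted p = 0.039) and 1.02 ± 0.10 at 24 h (adjusted p = 0.000745), or 2.03-fold. The 24 h call was kept whichever array was left out, and the 12 h call was lost without any array other than 12 h replicate 2 (adjusted p up to 0.205). The second vesicular monoamine transporter SLC18A2 changed by 0.05 and the vesicular acetylcholine transporter SLC18A3 by 0.08 at 24 h (adjusted p = 0.836 and 0.75). Of the plasma membrane monoamine transporters, SLC6A2 (noradrenaline) changed by -0.20 and SLC6A4 (serotonin) by -0.31 at 24 h (adjusted p = 0.079 and 0.0697). Besides SLC22A4, the related carnitine transporter SLC22A5 changed by 0.10 and the organic cation transporter SLC22A2 by 0.04 at 24 h (adjusted p = 0.397 and 0.904). At 24 h the choline transporter SLC44A1 changed by 0.18 (adjusted p = 0.226) and its relative SLC44A4 by 0.20 (adjusted p = 0.458), after 0.44 at 12 h (adjusted p = 0.0937) for the latter. Low signals on such arrays contain binding by other transcripts, so these dim genes have less certain changes.

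The other 74 genes included sugar, vitamin, nucleoside, monocarboxylate, peptide and lipid carriers. None was called at 6 h (14 had an unadjusted p under 0.05). At 12 h, 5 were called higher and 5 lower (13.5%), and at 24 h, 5 higher and 2 lower (9.46%). Of all genes, 3.54%, 18.4% and 17.7% were called at 6, 12 and 24 h, so the class was below the background of all genes each time. Only 19 of the 74 lay in the brighter 50% of genes. Of these 19, 0%, 36.8% and 31.6% were called, beside 6.25%, 28.1% and 27.3% of all brighter genes. SLC5A6, which takes up biotin, pantothenate and lipoate, had values of 9.24 and 9.17 at 0 h, 9.0 and 9.10 at 6 h, 8.81 and 8.71 at 12 h, and 8.66 and 8.68 at 24 h. The arrays of the 4 times did not overlap and were lower at each later time. The change was -0.15 at 6 h (not called), -0.45 ± 0.06 at 12 h (limma adjusted p = 0.00416) and -0.53 ± 0.06 at 24 h (adjusted p = 0.00164). Both calls were kept whichever array was left out. SLC5A3, which takes up the osmolyte myo-inositol, had values of 9.50 and 9.49 at 0 h, 9.79 and 9.72 at 6 h, 9.94 and 9.92 at 12 h, and 9.94 and 9.80 at 24 h. All hypoxic arrays were above 0 h, with changes of 0.43 at 12 h (limma adjusted p = 0.0046) and 0.37 at 24 h (adjusted p = 0.00728). The 24 h call was lost without either 0 h array (adjusted p up to 0.0586). The gene overlaps MRPS6, so its probe sets may not separate both genes.

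SLC10A3, an uncharacterised relative of the bile acid transporters, had values of 7.12 and 7.07 at 0 h, 7.25 and 7.30 at 6 h, 7.49 and 7.60 at 12 h, and 7.47 and 7.54 at 24 h. SLC75A1, also known as MFSD10, had values of 7.18 and 7.06 at 0 h, 7.30 and 7.35 at 6 h, 7.43 and 7.45 at 12 h, and 7.56 and 7.67 at 24 h. In both genes every hypoxic array was above 0 h, and in SLC75A1 each later time was higher than the one before. The changes were 0.45 and 0.41 for SLC10A3 at 12 and 24 h (limma adjusted p = 0.00384 and 0.00497), and 0.31 and 0.49 for SLC75A1 (adjusted p = 0.0176 and 0.00287). Of these, only the 12 h call of SLC75A1 was lost without an array (0 h replicate 2 or 12 h replicate 2, adjusted p up to 0.125). The hexose transporter SLC2A6 had values of 7.73 and 7.83 at 0 h, 7.54 and 7.56 at 6 h, 7.45 and 7.47 at 12 h, and 7.36 and 7.46 at 24 h. Its arrays were below 0 h at each hypoxic time, with changes of -0.32 at 12 h (limma adjusted p = 0.0128) and -0.37 at 24 h (adjusted p = 0.0065), both lost without 0 h replicate 2 (adjusted p = 0.101 and 0.0616). The other 7 hexose transporters measured were not called at 12 or 24 h. The monocarboxylate transporter SLC16A7 had values of 5.63 and 5.76 at 0 h, 5.53 and 5.47 at 6 h, 5.28 and 4.47 at 12 h, and 5.34 and 5.09 at 24 h. Replicate 2 of 12 h was far below all other arrays, and the change of -0.83 ± 0.22 (limma adjusted p = 0.0402) was -0.42 without it, with the call lost without any array other than 12 h replicate 1 (adjusted p up to 0.179).

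At 12 h the lysosomal transporter SLC46A3 changed by -0.33 (limma adjusted p = 0.0123) and the sugar transporter SLC50A1 by -0.40 (adjusted p = 0.0372), while SLC5A4, a glucose sensor of the SGLT family, changed by 0.44 (adjusted p = 0.036). At 24 h SLC37A4, which carries glucose 6-phosphate into the endoplasmic reticulum, changed by 0.26 (adjusted p = 0.0324). SLC66A2 changed by 0.21 at 12 h and 0.26 at 24 h (adjusted p = 0.0434 and 0.0193). Each of these calls was lost without either 0 h array, among others, with adjusted p up to 0.0865, 0.166, 0.153, 0.192, 0.237 and 0.14 in the order given. None of the 6 nucleoside transporters (SLC28 and SLC29), the 4 nucleotide sugar transporters of the SLC35A family and the 4 fatty acid transport proteins (SLC27) was called at 12 or 24 h.

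Between hypoxic times, 24 h differed from 6 h for 8 members (3.69%), 3 higher and 5 lower, against 2.78% of all genes (1.85% higher and 0.936% lower). SLC18A1 was higher at 24 h by 0.63 ± 0.10 (limma adjusted p = 0.027), SLC6A8 by 0.52 ± 0.07 (adjusted p = 0.0116) and SLC7A7 by 0.29 ± 0.05 (adjusted p = 0.0373). SLC6A15 was lower by 0.44 ± 0.06 (adjusted p = 0.0157), SLC5A6 by 0.38 ± 0.06 (adjusted p = 0.0287), SLC38A1 by 0.29 ± 0.05 (adjusted p = 0.0373) and SLC38A4 by 0.37 ± 0.07 (adjusted p = 0.0457). SLC38A6, another member of the neutral amino acid family, was lower by 0.31 ± 0.06 (adjusted p = 0.0464), with changes from 0 h of 0.11 at 6 h and -0.20 at 24 h that were not called. Thus 6 of the 8 were in the amino acid class, which counts the creatine transporter SLC6A8, and 4 of these 6 were lower at 24 h. The count fell to 2 without either 0 h array, to 0 without either 6 h array, to 3 without 24 h replicate 1 and to 0 without 24 h replicate 2. Between 12 and 6 h, 0 members were called (0.201% of all genes), with 58 at an unadjusted p under 0.05. Between 24 and 12 h, 0 were called (0.242% of all genes), with 39 at an unadjusted p under 0.05. Without 12 h replicate 1 these counts were 9 and 5.

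For 70 of the 217 genes the array held several probe sets, up to 7. Their changes had the same sign in all probe sets of a gene for 34, 31 and 36 genes at the successive times. Probe sets of a gene were called in opposite directions for 0 genes. Fitted as separate features, 5, 36 and 39 of the 332 probe sets were called at 6, 12 and 24 h (1.51%, 10.8% and 11.7%), against 2.7%, 16.2% and 14.7% of all probe sets. The 3 probe sets of SLC25A36 gave changes of 0.83, 0.90 and 0.66 at 6 h and 0.93, 1.06 and 0.70 at 24 h, and each was called at every time. Those of SLC6A8 differed in size. The probe set used for the gene gave 0.45, 0.85 and 0.97 at the 3 times, while the other 2, whose probes also match other transcripts, gave 0.00, 0.35 and 0.23, and 0.22, 0.30 and 0.44. Both probe sets of SLC38A2 were lower at 24 h (-0.31 and -0.29, both called), and 2 of the 3 of SLC5A3 were higher at 12 h (0.43 and 0.46).

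For 3 genes at 12 h and 6 at 24 h, the gene was not called but a probe set was in the separate fit. This count takes in any probe set of the gene, the brightest included. The arginine transporter SLC7A1 was such a gene at both times. Its brightest probe set (12.11 at 0 h) changed by -0.08 at 24 h, while probe sets at 6.62 and 6.45 changed by -0.39 and -0.29 (limma adjusted p over all probe sets = 0.0153 and 0.0357). The light chain SLC7A6 was another, with -0.12 in its brightest probe set and -0.30 and -0.40 in the others at 24 h (adjusted p over all probe sets = 0.378, 0.0167 and 0.0411). The others were SLC24A1 at 12 h and SLC11A1, SLC12A4, SLC13A3 and SLC38A7 at 24 h.

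**Figure D4:**
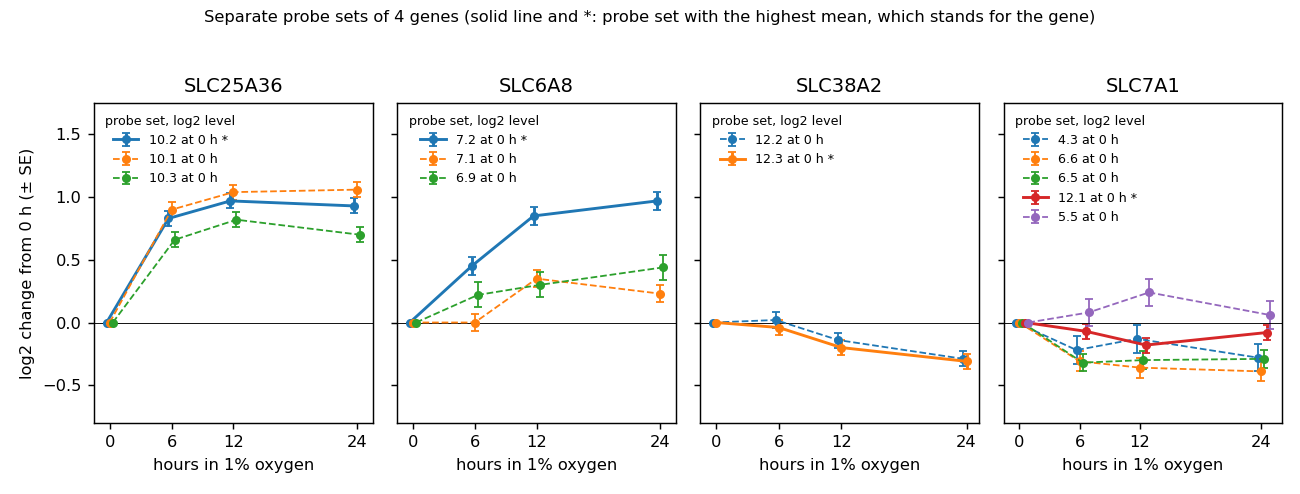
Log2 change from 0 h (vertical axis, with the standard error of the fit) against hours at 1% oxygen (horizontal axis) for each probe set of SLC25A36, SLC6A8, SLC38A2 and SLC7A1. The solid line and star mark the probe set that stands for the gene, and the legend gives each probe set's log2 level at 0 h; the 3 sets of SLC25A36 rise together to between 0.70 and 1.06 at 24 h, while the brightest set of SLC7A1 (12.1) changes by -0.08 and sets at 6.6 and 6.5 by -0.39 and -0.29.

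Most solute carrier genes were dim on this array. Only 71 of the 217 (32.7%) lay in the brighter 50% of all genes, and 146 in the dimmer 50%. Of the brighter 71, 3 were called at 6 h (4.23%), 22 at 12 h (31.0%) and 21 at 24 h (29.6%), beside 6.25%, 28.1% and 27.3% of all brighter genes. Of the dimmer 146, 0, 11 and 6 were called (0%, 7.53% and 4.11%), beside 0.819%, 8.76% and 8.19% of all dimmer genes. Within each of these sets the members' shares at 12 h were thus within 3 percentage points of the background. When only the brighter 50% was fitted, 17, 33 and 34 of the 71 were called (23.9%, 46.5% and 47.9%), beside 22.1%, 45.3% and 44.3% of all genes in that fit. The 17 at 6 h were 14 higher and 3 lower. The small count of 3 at 6 h in the fit of all genes therefore depends on the genes tested with it.

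Of 25 solute carriers whose names fall outside the convention used here, 2 were called at 6 h (8%), 6 at 12 h (24%) and 4 at 24 h (16%), beside 3.54%, 18.4% and 17.7% of all genes. SLC35D1, a nucleotide sugar transporter of the endoplasmic reticulum, changed by -0.43, -0.54 and -0.49 (limma adjusted p = 0.0136, 0.00219 and 0.00273), and both subunits of the mitochondrial pyruvate carrier, MPC1 and MPC2, were lower at 12 h by 0.31 and 0.23 (adjusted p = 0.00788 and 0.027). Of 34 ABC transporters, which pump solutes with ATP, 2, 6 and 7 were called (5.88%, 17.6% and 20.6%). The drug and glutathione conjugate exporter ABCC1 changed by 0.31, 0.55 and 0.43 (adjusted p = 0.0305, 0.00118 and 0.00251). Of 31 ion pump ATPase subunits, 1, 6 and 5 were called (3.23%, 19.4% and 16.1%), among them the copper pump ATP7A (0.34, 0.37 and 0.32, adjusted p = 0.0194, 0.00492 and 0.00784) and the sarcoplasmic reticulum calcium pump ATP2A2 (-0.27 at 12 h and -0.26 at 24 h, adjusted p = 0.0122 and 0.0141).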

How the data were processed

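Total RNA of each sample was hybridised to 1 Affymetrix array. The authors deposited log2 values, 1 per probe set, made with RMA per the submitters' processing notes, with no version given. RMA usually makes the distribution of values equal between arrays, so changes are relative to the other transcripts of an array, and a fall in all messenger RNA would not be seen. Array data have no read depth; the number of arrays limits the precision.

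Probe sets were linked to genes by the array's platform annotation (2016), and the symbols of all 217 members were those of the RefSeq gene table. Of 22215 non-control probe sets, 19064 had 1 symbol, 1043 several and 2108 none. A further 6 solute carrier probe sets with several symbols were left out, and SLC16A1 and SLC16A3 had no single-symbol probe set here. Each gene was represented by its probe set with the highest mean (147 members had 1 probe set). Identifiers of all 217 members were found in the RefSeq gene table of GRCh38.p14, used for names and promoters alone. Promoters on 1 chromosome were not used, and 38 members had none.

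One limma model (version 3.58.1, R 4.3.3) of the 4 group means used all 8 arrays, with 4 residual and 3.68 prior degrees of freedom. Tests were two-sided, and p-values were adjusted by Benjamini-Hochberg over 11963 genes within a comparison. They measure the spread between these samples, which may be technical. Tested on data simulated like 6 h against 0 h with 200 changed genes, the fit recovered 69.2% of genes changed by 0.5 (log2), 94.6% by 1 and 99.8% by 2, and 4.79% of calls were false. The alternatives left out each array, blocked on the replicate number, changed the variance model, normalization, filter on dim genes, probe set rule, threshold or arrays fitted.

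Named genes were the 10 largest called rises and falls at each time against 0 h, 5 of each between hypoxic times, up to 4 called genes (or the 2 largest uncalled) of each class or family described, the genes of 4 short lists and up to 3 examples of each outside list. Some uncalled relatives of these genes were added after their values were seen. Members, classes and lists were chosen with earlier results of these data known.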

Additional observations from a re-analysis of the deposited data

Results flagged for a closer look

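These results stand out because the response at 24 h differed from that at 6 h by a direct test of the 2 times (limma, adjusted p over all genes), with arrays that did not overlap. The difference, 24 h minus 6 h on the log2 scale, was 0.63 for SLC18A1 (adjusted p = 0.027), 0.52 for SLC6A8 (adjusted p = 0.0116) and 0.29 for SLC7A7 (adjusted p = 0.0373). It was -0.44 for SLC6A15 (adjusted p = 0.0157), -0.38 for SLC5A6 (adjusted p = 0.0287) and -0.29 for SLC38A1 (adjusted p = 0.0373). It was -0.37 for SLC38A4 (adjusted p = 0.0457) and -0.31 for SLC38A6 (adjusted p = 0.0464). With 2 arrays per time, single arrays far from their group were not tested for. All 8 calls were lost without either 6 h array or without 24 h replicate 2.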

How the results depend on the processing

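Each call was followed without each single array and under 8 other alternatives, and only these are meant in the next sentences on calls kept. They changed the block, variance model, normalization, filter on dim genes or averaging of probe sets. Calls at the stricter threshold, with only the 2 times compared or by any probe set were not followed gene by gene. No called member changed direction under the alternatives followed. Without any one array, and under every other alternative that held the gene, 1 of 3 calls at 6 h, 8 of 33 at 12 h and 12 of 27 at 24 h were kept. Of these 12, SLC18A1 and SLC22A4 had 7 other alternatives in place of 8, since a filter on dim genes left them out. Leaving out single arrays gave 1 to 8 calls at 6 h, 9 to 32 at 12 h and 13 to 30 at 24 h, 0 to 7 for 24 h against 6 h, 0 to 9 for 12 h against 6 h, 0 to 5 for 24 h against 12 h and 5 to 33 in the F-test. With an intensity trend in the variance the counts were 14 at 6 h, 18 (24 h against 6 h), 10 (12 h against 6 h), 6 (24 h against 12 h) and 45 (F-test). Without the dimmest 25% of genes they were 11 at 6 h, 4 (12 h against 6 h), 1 (24 h against 12 h) and 40 (F-test). Without the dimmer 50% they were 17 at 6 h, 18, 12, 9 and 39 in the same order of comparisons as for the trend. At an adjusted p under 0.01, the counts were 8 at 12 h, 15 at 24 h and 0 for 24 h against 6 h. With only the arrays of the 2 times compared they were 9 at 6 h, 21 at 12 h and 3 for 24 h against 6 h. Calling any probe set of a gene gave 4 for 24 h against 6 h, and a further quantile normalization 1 for 12 h against 6 h. No pairing of the samples by replicate number was seen, as the deviations of same-numbered arrays correlated between -0.113 and 0.086. With 2 arrays per time this cannot exclude a shared culture or run, which the labels do not state. With the replicate number as a block the counts were 4, 25 and 29 at 6, 12 and 24 h, 2 for 24 h against 6 h, 0 between 12 h and either neighbour, and 19 in the F-test. With 2 arrays per time a change of 0.5 was recovered in 69.2% of cases in simulated data, so smaller changes are often missed.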
